A study of Mus musculus with 2 samples.

Results

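The cells described here are S100a8/S100a9-low, Csf3r/Slfn1-positive cells of a mouse bone marrow culture without coculture. They were chosen in 1 single-cell library among barcodes that held 500 genes or more and no more than 10% mitochondrially encoded UMIs (unique molecular identifiers, each standing for 1 captured transcript). A barcode belonged to them if Slfn1 and Csf3r gave 2 UMIs or more together, S100a8 and S100a9 under 5% of its UMIs, Ltf, Camp and Ngp under 0.3%, Ctss under 0.15%, and Ccl17, Mgl2 and Ptx3 under 0.1%. The rule found 475 cells, 26.1% of the 1817 kept barcodes of the library (24.1 to 28.2%, exact Clopper-Pearson interval), and they are called S100-low cells below. The cells were thus selected on the measured levels of the 11 genes of the rule, which are given as a description only.

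The study compared femur marrow of C57BL/6NCrljOri mice (H-2b) cultured for 5 days with GM-CSF, the granulocyte-macrophage growth factor, at 40 ng/mL. The library without coculture came from CD11bhiLy6Chi cells cultured in RPMI1640. The other library came from CD11bmidLy6Cmid cells, cultured in DMEM beside human mesenchymal stromal cells that had been placed in inserts with 0.4 µm pores 24 h earlier, at 1 stromal cell to 5 marrow cells. Both sorts used a viability dye, and both cultures received GM-CSF, so neither holds cells that had not been exposed to it. The labels give neither the age nor the number of the mice, and each group is 1 library. No difference therefore has a replicate check, no test was run, and every interval below covers counting error only.

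Neutrophils mature in marrow under G-CSF, whose receptor is encoded by Csf3r. They fill successive sets of granules, with proteases such as elastase first, then lactoferrin (Ltf), cathelicidin (Camp) and Ngp, and last gelatinase (Mmp9). S100a8 and S100a9 encode the calprotectin subunits, which are among the most abundant transcripts of maturing neutrophils and of classical monocytes. Slfn1 belongs to the Schlafen family, which is expressed in lymphoid and myeloid cells, and Ctss encodes the lysosomal protease cathepsin S of macrophages and dendritic cells. In GM-CSF cultures of marrow, neutrophils, monocytes, macrophages and dendritic cells arise side by side.

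The library held 28294186 UMIs over 2180 barcodes, and the kept barcodes had a median of 7016 UMIs and 2124 genes. The S100-low cells had a median of 3619 UMIs (712 to 101790) and 1712 genes, and they took 10.7% of the UMIs of the kept barcodes. The 2 libraries shared 4 barcodes, of which 0 were S100-low cells. Levels are given as CPM, the UMIs of a gene summed over a class of cells, scaled to 1000000 UMIs of that class, with exact Poisson 95% intervals where shown. The comparisons were with 3 other classes of the library, cut by the same thresholds, and with the coculture barcodes that met the rule. S100-high counterparts (322 cells) differ from the S100-low cells in 1 threshold, an S100a8 and S100a9 share of 5% or more. Ctss-high cells (454) had a low S100a8 and S100a9 share and Ctss at 0.15% or more, and granule-rich cells (167) had Ltf, Camp and Ngp at 0.3% or more and low Ctss.

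The 6 genes taken as markers of these cells all reached 10 CPM in them. Slfn1 stood at 589 CPM (562 to 618) and Csf3r at 407 CPM (384 to 430.3), by the rule's choice (926 and 625 CPM over 448 of the cells, set apart further on). The other 4 were not used by the rule. Lst1, a small leukocyte membrane protein gene of the MHC class III region, stood at 926 CPM (892 to 961) in the S100-low cells, 590.4 in the S100-high counterparts and 181 in the Ctss-high cells. Tarm1, an immune receptor gene of myeloid cells, stood at 943 CPM (908 to 979), against 923 and 172. Hcar2, the receptor of niacin and beta-hydroxybutyrate, stood at 236 CPM (219 to 254), against 189 and 44.6. Lilra6, a paired immunoglobulin-like receptor gene, stood at 182 CPM (167 to 198), against 238 and 28.1. Over all cells these 4 genes were within 2-fold of each other in the S100-low cells and the S100-high counterparts (log2 ratios 0.65, 0.03, 0.32 and -0.39), and lower in the Ctss-high cells. Over the 448 they stood at 1388, 1376, 339 and 287 CPM, and the log2 ratio of Lst1 was past 2-fold (1.15) while those of the other 3 were 0.54, 0.77 and 0.25. In the mouse build GRCm38, Slfn1 lies at chr11:83116849-83122670 (plus strand), Csf3r at chr4:126024550-126044440 (plus), Lst1 at chr17:35185095-35188439 (minus), Hcar2 at chr5:123863570-123865499 (minus), and Tarm1 and Lilra6 at chr7:3486500-3502624 and chr7:3908280-3915503 (minus). Lilra6 has near-identical relatives, so its counts are uncertain.

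**Figure D1:**
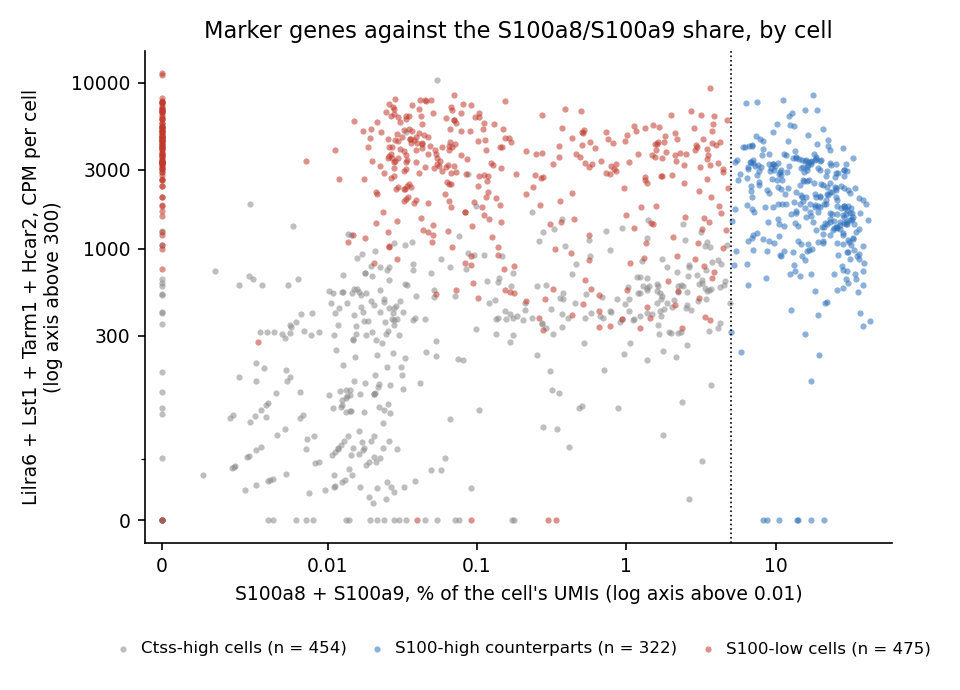
Each point is 1 cell of the library without coculture. The x axis is the share of its UMIs from S100a8 and S100a9 (percent, logarithmic above 0.01), the y axis the summed level of Lilra6, Lst1, Tarm1 and Hcar2 (CPM, logarithmic above 300), and the dotted line the rule's 5%. The 475 S100-low cells and 322 S100-high counterparts overlap on the y axis and are separated on the x axis by the rule, while most of the 454 Ctss-high cells lie lower on the y axis.

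Markers of other cell types were at or near 0 for most lineages. Of the 9 eosinophil markers, 6 had 0 UMIs, among them the granule protein genes Epx, Prg2 and Prg3, although Siglecf, a lectin gene best known from eosinophils, stood at 83.8 CPM (73.7 to 94.8). All 7 erythroid markers, 7 of 9 T or NK cell markers and 6 of 9 B lineage markers had 0 UMIs. So did 6 of 8 basophil or mast cell markers and the dendritic cell genes Flt3, Zbtb46 and Ccr7. Of the 18 neutrophil markers 17 reached 10 CPM (14 over the 448 cells described next), of the 16 macrophage markers 14 (9), of the 11 monocyte markers 9 (6) and of the 14 dendritic cell markers 6 (3). The neutrophil set holds 6 genes of the rule and the dendritic cell set 2, so their counts are partly set by the choice of cells. Monocyte markers summed to 1127 CPM and dendritic cell markers outside the rule to 1283 CPM, against 1894 and 2926 CPM in the Ctss-high cells, and over the 448 they summed to 752 and 757 CPM. Leaving out the genes of the rule, the neutrophil markers summed to 3415 CPM in the S100-low cells, 8766 in the S100-high counterparts, 12230.5 in the granule-rich cells and 2179 in the Ctss-high cells. The macrophage markers summed to 3200.2 CPM in the S100-low cells, 814, 531 and 7479 in the same order. Cxcr2, the receptor of neutrophil-attracting chemokines (107 CPM, and 160.1 over the 448, against 357 and 24.4), and Mmp9 (483 and 745 CPM against 1311 and 82.1) lay between the S100-high counterparts and the Ctss-high cells. Not all neutrophil markers did. Of 12 at 10 CPM or more in either class, 0 were 2-fold higher and 7 lower than in the S100-high counterparts (1 and 5 over the 448). Against the Ctss-high cells 7 of 11 were higher and 0 lower, also over the 448. Of all measured genes, 1.59% were lower in the first comparison and 5.39% higher in the second. Hdc was 2-fold or more higher over the 448 than in all 3 other classes, but over all cells only than in the Ctss-high cells. The cells also carried some macrophage markers. Ly6g, the neutrophil surface marker gene, stood at 6.39 CPM against 62.7 in the S100-high counterparts. The S100-low cells are named here by their rule, with no cell type.

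A few very deep cells weighed heavily in the sums. The deepest 5% of the S100-low cells held 39.3% of their UMIs. The minimum of 2 Slfn1 and Csf3r UMIs is a count and not a share, and 27 cells passed it with under 0.03% of their UMIs from the 2 genes. They had 9255 to 101790 UMIs (median 37199, and 5977 genes) and held 39.5% of the UMIs. Their macrophage markers summed to 5317 CPM (median per cell 5099), against 1819 CPM (median per cell 1000.3) in the other 448, and their neutrophil markers to 1913 against 4394 CPM. Median Ctss was 0.108% of UMIs in the 27 cells and 0.0216% in the 448. Lst1, Tarm1, Hcar2 and Lilra6 summed to 597 CPM in the 27 cells and 3390.0 CPM in the 448. Whether these 27 barcodes hold 1 cell each was not tested. Most levels, gene counts and list medians below are therefore given over all 475 cells and over the 448, a division made after the data were seen. A value given once is over all 475 cells unless another group is named. In ratios over the 448 the same minimum of 0.03% was set for the S100-high counterparts (309 of 322 cells) and the coculture barcodes, while a CPM set beside them is over the whole class. Where a pair of levels stands before the word against, the first is over all 475 cells and the second over the 448.

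**Figure D2:**
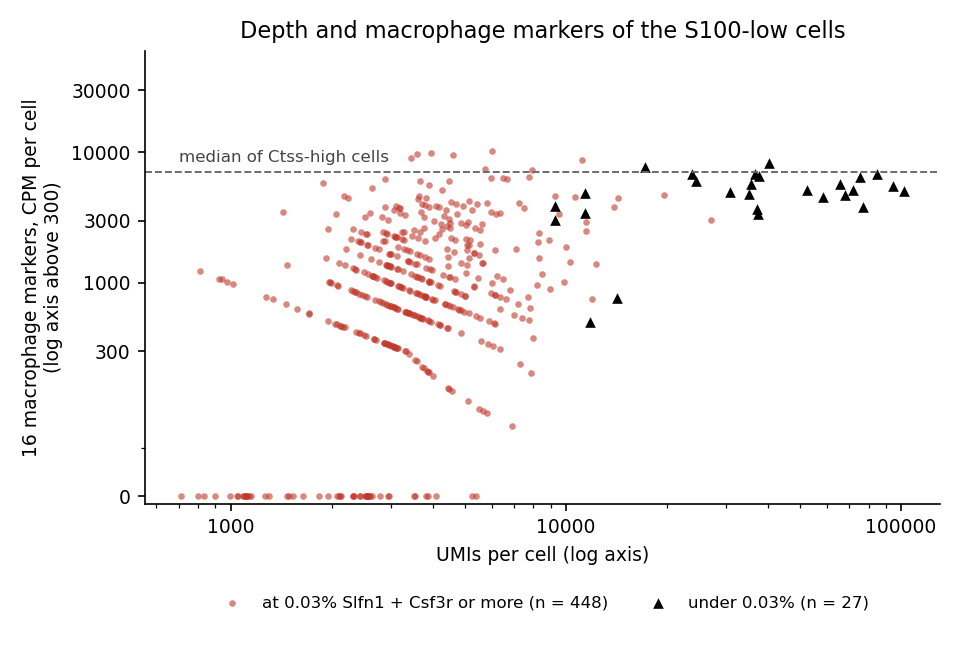
Each point is 1 S100-low cell, with its UMIs on the x axis (logarithmic) and the summed level of 16 macrophage markers on the y axis (CPM, logarithmic above 300). The 27 cells with under 0.03% Slfn1 and Csf3r (triangles) are among the deepest, and 2 of them, and 8 of the other 448, lie above the median of the Ctss-high cells (dashed line).

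The values that chose the cells were spread widely. Slfn1 and Csf3r together gave 2 to 29 UMIs per cell (median 6), with 0 UMIs of Slfn1 in 34 cells and 0 of Csf3r in 67. The S100a8 and S100a9 share ran from 0 to 4.83% (median 0.0653%), against a median of 17.3% in the S100-high counterparts. It was 0 in 105 cells and under 0.1% in 274. Ltf, Camp and Ngp were at 0 UMIs in 433 cells, Ctss in 193, and Ccl17, Mgl2 and Ptx3 in 443. Few cells lay next to the 5% threshold, with 10 S100-low cells at 4 to 5% and 10 S100-high counterparts at 5 to 6%. More lay next to the other limits. For Slfn1 and Csf3r, 57 cells had 2 UMIs, and 63 cells outside the rule for that reason alone had 1 and another 90 had 0. For Ctss, 37 cells had 0.1 to 0.15% and 51 of the Ctss-high cells 0.15 to 0.2%.

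Among the 15 genes with the highest level outside ribosomal and mitochondrial genes were Lyz2, which encodes lysozyme (19331 CPM, 18289.9 over the 448), the ferritin genes Fth1 (33474 and 29521) and Ftl1 (15670.1 and 15856), the actin and thymosin genes Actb (8192 and 9521) and Tmsb4x (13779.8 and 15057), and the chemokine gene Ccl6 (10791 and 10939). Lyz2 and Ccl6 were also high in the S100-high counterparts (16936 and 12341 CPM) and in the Ctss-high cells (33255 and 12667 CPM). The C/EBP factor gene Cebpb, a regulator of granulocyte and macrophage genes, stood at 2069 CPM (2579 over the 448) against 2128 in the S100-high counterparts. Spi1, which encodes the myeloid regulator PU.1, stood at 694 CPM (802 over the 448) against 764. Csf2rb, the shared receptor chain for GM-CSF, stood at 556 CPM (416 over the 448) against 302.

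Against the S100-high counterparts, the S100-low cells had higher levels of lysosomal genes and lower levels of late neutrophil genes, by the counts of those 2 lists given below. The count of lower late neutrophil genes includes a cluster of near-identical stefin genes. Single lectin, chemokine and purine receptor genes were also higher, but the lists of pattern receptors with lectins and of cytokines had medians below that of all measured genes. A gene counted as measured at 10 CPM or more in either class and as higher or lower at a 2-fold difference, leaving out the genes of the rule. Of 7917 measured genes, 1610 (20.3%) were higher and 126 (1.59%) lower, and the median log2 ratio was 0.48. Over the 448 cells 1492 (19.1%) were higher and 98 (1.25%) lower of 7817, with a median of 0.54. These counts depend on the scaling, as S100a8 and S100a9 take up UMIs of the S100-high counterparts. Leaving the UMIs of both genes out of the totals moved every log2 ratio by -0.30 and gave 899 higher and 270 lower genes, and TMM factors, which scale on the bulk of genes, moved it by -0.45 and gave 549 and 355. Log2 ratios below are on the total UMI scale, where the median gene is at 0.48.

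Genes of surface lectins and receptors were among those that were higher. Clec4n, which encodes the fungal pattern receptor dectin-2, stood at 1368 CPM (1647 over the 448) against 365 CPM in the S100-high counterparts, a log2 ratio of 1.91 (1.78 to 2.03). Clec7a, which encodes dectin-1, stood at 519 CPM (725 over the 448) against 209, a log2 ratio of 1.31 (1.15 to 1.48). The inhibitory Fc receptor gene Fcgr2b stood at 466 CPM (465 over the 448) against 121, and Cd302, another C-type lectin gene, at 55.5 CPM (44.5 over the 448) against 6.27. Siglecf stood at 83.8 CPM (121 over the 448) against 17.7, a log2 ratio of 2.25 (1.70 to 2.83). C3ar1, the receptor of complement C3a, stood at 136 CPM (156 over the 448) against 58.7. The UDP-sugar receptor gene P2ry14 stood at 105 CPM (97.8 over the 448) against 8.55 with a log2 ratio of 3.62 (2.88 to 4.48), and the ADP receptor gene P2ry13 at 12.8 CPM (17.8 over the 448) against 0.570. All 8 ratios stayed at 2-fold or more over the 448 cells. With TMM factors those of Clec7a and C3ar1 were under 2-fold (log2 0.86 and 0.76), and the other 6 were not. Not all of these genes set the S100-low cells apart from the Ctss-high cells. Against those, Clec7a and Siglecf were 2-fold or more higher over all cells and over the 448, and Clec4n, Fcgr2b, C3ar1, P2ry14 and P2ry13 were not in either.

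Secreted and signalling genes followed. The chemokine genes Ccl9 and Ccl4 stood at 1011 CPM (1159 over the 448) against 176 and at 560.1 CPM (571 over the 448) against 113. Lpl, which encodes the triglyceride-cleaving lipoprotein lipase and was on the macrophage marker list, stood at 1072 CPM (828 over the 448) against 131, a log2 ratio of 3.04 (2.84 to 3.24). The macrophage growth factor gene Csf1 stood at 68.6 CPM (76.2 over the 448) against 14.8. Among regulators, Id2, an inhibitor of helix-loop-helix factors, stood at 158 CPM (157 over the 448) against 23.4, and Pou2f2, a POU factor gene, at 51.1 CPM (69.5 over the 448) against 7.41. The adaptor genes Scimp and Dok2 stood at 119 CPM (154 over the 448) against 19.4 and at 108 CPM (117 over the 448) against 14.8. The nuclear lamina gene Lmna stood at 90.5 CPM (100.1 over the 448) against 24.5. In contrast, Arg1, which encodes arginase and is associated with suppressor cells, was low in both, at 10.1 CPM (30 UMIs) and 0 UMIs. Compared with the Ctss-high cells, Ccl4 and Csf1 were 2-fold or more higher over all cells and over the 448, and Ccl9, Lpl and Id2 were not in either.

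The lower genes included genes of the late neutrophil list, of the secondary granule list and of neither. Retnlg, a resistin-like gene of circulating neutrophils, stood at 14.1 CPM (11.7 over the 448) against 1001, a log2 ratio of -6.15 (-6.62 to -5.71). The stefin A cluster on chromosome 16, which encodes cysteine protease inhibitors, had 5 genes that were lower. Stfa2 stood at 55.2 CPM (65.0 over the 448) against 1106, Stfa1 at 58.2 CPM (71.7 over the 448) against 881, Stfa3 at 30.9 CPM (22.2 over the 448) against 164, Stfa2l1 at 153 CPM (213 over the 448) against 1330.2 and BC100530 at 165 CPM (177 over the 448) against 2832. Their near-identical copies can share reads, so the level of each single gene is uncertain. Ly6g stood at 6.39 CPM (7.78 over the 448) against 62.7 and Cd177, a neutrophil surface glycoprotein gene, at 43.7 CPM (33.9 over the 448) against 279. Ceacam10 stood at 39.7 CPM (46.7 over the 448) against 259, and Lcn2, which encodes the iron-scavenging lipocalin of secondary granules, at 398 CPM (478 over the 448) against 2298. The interferon-induced Ifitm1 stood at 765 CPM (873 over the 448) against 3073 and S100a6, another calcium-binding S100 gene, at 5670.1 CPM (6911 over the 448) against 20664. The glucose transporter gene Slc2a3 stood at 5.05 CPM (4.45 over the 448) against 38.8. The ratio of each of these 13 genes was 2-fold or more lower over all cells and over the 448. Both other scalings moved every log2 ratio down by a constant (-0.30 and -0.45). They could thus only move these ratios further down, and are no check on them.

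**Figure D3:**
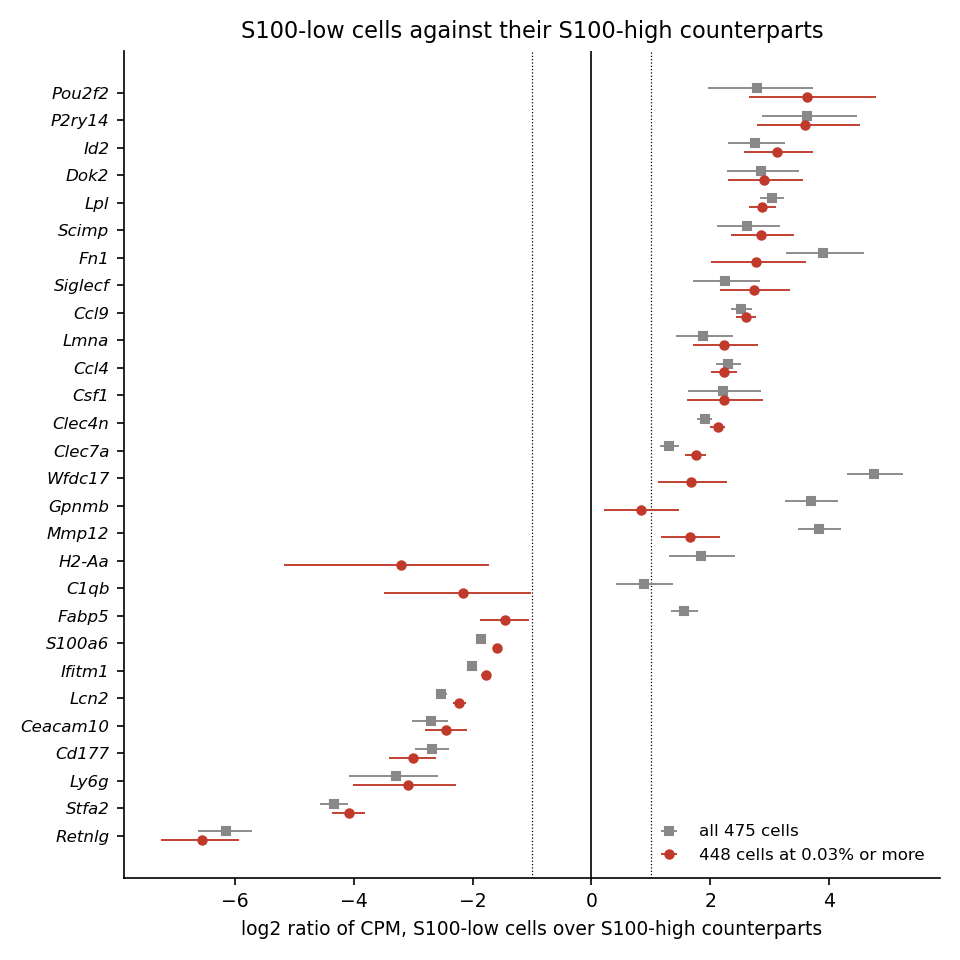
The x axis is the log2 ratio of CPM of S100-low cells over S100-high counterparts for 28 named genes, over all 475 cells (squares) and over the 448 with at least 0.03% Slfn1 and Csf3r against 309 counterparts (circles). Bars are exact 95% counting intervals, and dotted lines mark 2-fold. H2-Aa, C1qb and Fabp5 lie right of 0 over all cells and left of 0 over the 448, and the circle of Fn1 rests on 1 cell.

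Some macrophage and antigen presentation genes were higher over all cells mainly through the 27 deep cells, and others were also higher without them. Of the 15 measured macrophage markers, 9 were higher and 1 lower (list median 1.94), and over the 448 cells 6 and 2 of 11 (median 1.07). Their sum over the 448 was 1819 CPM against 671 in the 309 counterparts. The abundant Lpl, above, and Cd74, below, kept a 2-fold difference over the 448. H2-Aa, an MHC class II chain gene, stood at 67.3 CPM (2.22 over the 448) against 18.8, with 98% of its UMIs in the 27 cells, and its log2 ratio of 1.84 (1.30 to 2.42) became -3.21 over the 448. Fabp5, a fatty acid binding protein gene, went from 1.56 (1.33 to 1.79) to -1.46, with 92.5% of its UMIs in the 27 cells. Gpnmb, a transmembrane glycoprotein gene of macrophages, stood at 331 CPM (36.7 over the 448) against 25.6 and Mmp12, the macrophage elastase, at 542 CPM (88.4 over the 448) against 38.2. Wfdc17, a secreted protease inhibitor gene, stood at 631 CPM (66.2 over the 448) against 23.4 and Fn1, which encodes fibronectin, at 187 CPM (67.8 over the 448) against 12.5. Mmp12 and Wfdc17 kept a 2-fold difference over the 448, also without the cell that held most of their UMIs, and Gpnmb did not (log2 ratio 0.83). Fn1 kept it through 1 cell with 88 of its 122 UMIs, and without that cell its log2 ratio over the 448 was 0.94.

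The gene lists are read against the median of all measured genes, 0.48 (0.54 over the 448), since every scaling moves both alike. Of the 18 measured tertiary granule and late neutrophil genes, 0 were higher and 12 lower (list median -1.28), and over the 448 cells 1 and 8 of 18 (median -0.90). Both counts of lower genes include Stfa1, Stfa2, Stfa3, Stfa2l1 and BC100530 of the stefin A cluster. Outside that cluster only Il1f9, Padi4 and Retnlg were lower in both, and the higher gene over the 448 was Hdc. Beside those named above, the lower genes over all cells included Mmp9 (483 and 745 against 1311 CPM), whose difference was under 2-fold over the 448. The secondary granule list holds Lcn2, Cd177 and the haptoglobin gene Hp besides the genes of the rule, and of the 8 measured secondary granule genes, 1 was higher and 3 lower (list median -0.23), and over the 448 cells 0 and 3 of 8 (median -0.56). Of the 24 measured lysosome and proteolysis genes, 15 were higher and 0 lower (list median 1.08), and over the 448 cells 12 and 0 of 23 (median 1.01). Those higher in both included Lgmn, which encodes the protease legumain (134 and 80.1 against 30.2 CPM).

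MHC class II molecules present peptides to T cells, and of the 7 measured genes of their list, 7 were higher and 0 lower (list median 1.96), and over the 448 cells 3 and 2 of 5 (median 1.39). Cd74, the invariant chain, stood at 1058 and 713 against 225 CPM, whereas H2-Ab1 stood at 61.6 and 7.78 against 18.2 CPM, which is below the counterparts over the 448. Of the 10 measured leukotriene and prostaglandin genes, 5 were higher and 1 lower (list median 0.88), and over the 448 cells 5 and 1 of 10 (median 0.92). They included Ltc4s, the leukotriene C4 synthase (53.2 and 44.5 against 12.5 CPM), and on the lower side the glutathione transferase gene Mgst1 (292 and 305 against 662 CPM). Of the 19 measured chemoattractant and metabolite receptors, 5 were higher and 2 lower (list median 0.39), and over the 448 cells 6 and 1 of 18 (median 0.71). The receptor of the list that was lower in both was Cxcr2. Of the 17 measured inflammatory cytokines and chemokines, 6 were higher and 1 lower (list median 0.37), and over the 448 cells 5 and 0 of 16 (median 0.38). Of the 16 measured pattern recognition receptors and C-type lectins, 4 were higher and 0 lower (list median 0.19), and over the 448 cells 2 and 0 of 15 (median 0.21), where the 2 were Clec4n and Clec7a. Il1b, the interleukin 1 beta gene of the cytokine list, stood at 158 and 228 against 138 CPM.

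Respiration genes lay near the median gene and glycolysis genes below it. Of the 39 measured nuclear oxidative phosphorylation genes, 6 were higher and 0 lower (list median 0.66), and over the 448 cells 5 and 0 of 39 (median 0.65). Of the 28 measured glycolysis and hypoxia genes, 0 were higher and 2 lower (list median -0.09), and over the 448 cells 0 and 1 of 28 (median -0.02). Gapdh, the glycolytic glyceraldehyde phosphate dehydrogenase, stood at 2696 and 2703 against 2874 CPM. The NADPH oxidase makes the superoxide of phagocytes, and of the 7 measured subunit genes, 1 was higher and 0 lower (list median 0.07), and over the 448 cells 0 and 0 of 7 (median 0.32). Of the 29 measured paired and inhibitory immune receptors, 3 were higher and 3 lower (list median 0.12), and over the 448 cells 4 and 1 of 30 (median 0.38). Of the 24 measured G2/M genes, 15 were higher and 0 lower (list median 1.61), and over the 448 cells 7 and 0 of 17 (median 0.75). The DNA topoisomerase gene Top2a of dividing cells stood at 20.2 and 3.89 against 1.71 CPM, with 88.3% of its UMIs in the 27 deep cells.

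**Figure D4:**
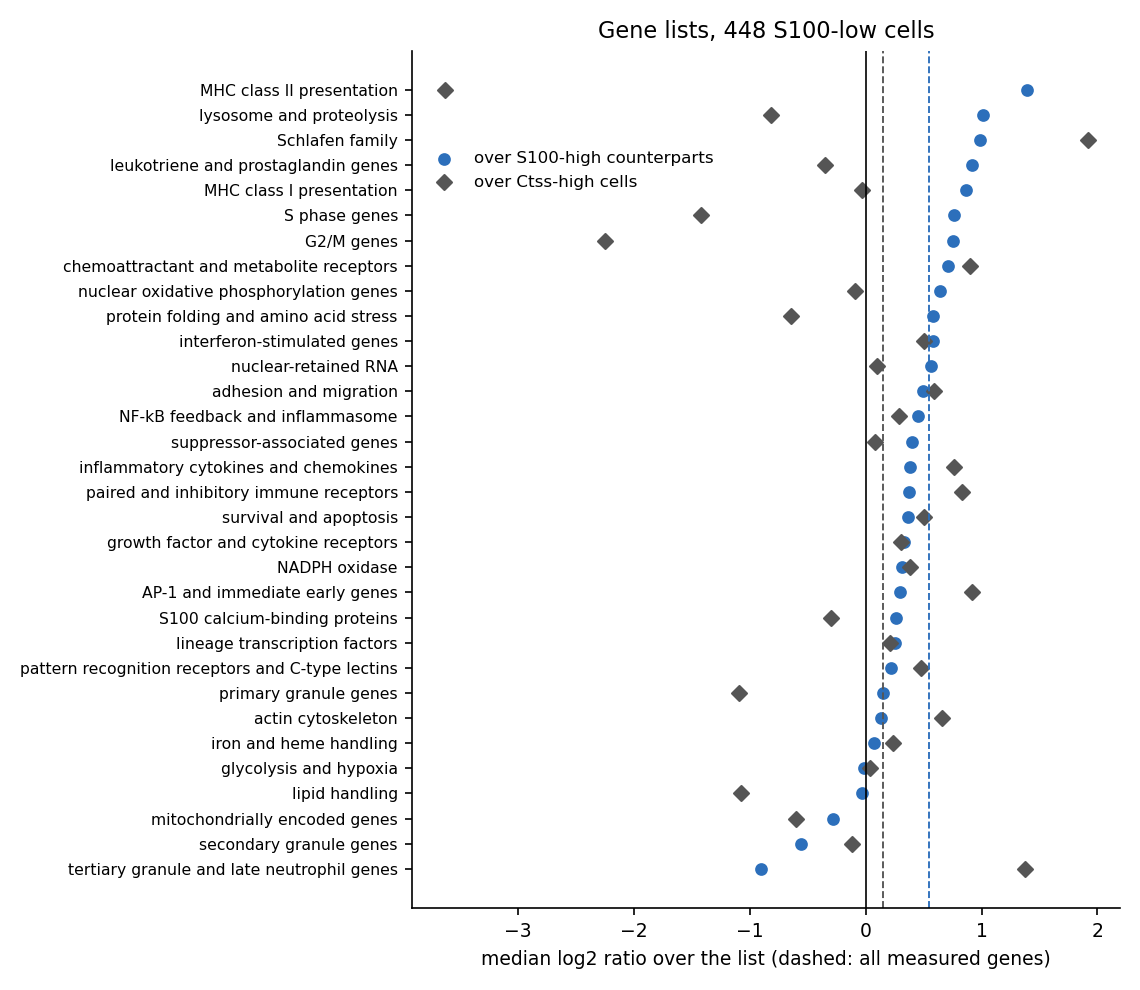
Median log2 ratio of each of 32 gene lists over the 448 S100-low cells, against the S100-high counterparts (circles) and the Ctss-high cells (diamonds), with dashed lines at the medians of all measured genes (0.54 and 0.15). The late neutrophil list lies lowest against the S100-high counterparts and high against the Ctss-high cells, and the MHC class II list the other way round. Against the S100-high counterparts the MHC class II median (1.39) rests on 5 genes, of which 3 were higher and 2, H2-Ab1 and H2-Aa, lower.

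The S100-low cells were also described along their S100a8 and S100a9 share. This share is a value of the rule, and the genes followed are those named above for a difference between the S100-low cells and the S100-high counterparts, so the values are a description and support no claim. The 448 were divided into 267 cells under 0.1%, 93 at 0.1 to 1% and 88 at 1 to 5%, with median depths of 3401, 4107 and 3491 UMIs, and set beside the 309 S100-high counterparts (4956 UMIs). The ranges were set after the data were seen. Genes were followed if their ratio was 2-fold or more in the same direction over all cells and over the 448, which left 24 higher and 14 lower genes.

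Of the 14 lower genes, 11 had a higher level in each range than in the one before, and Ifitm1, Stfa1 and Stfa3 did not. Some of these orders rest on few UMIs, with 2, 1 and 5 of Slc2a3 and 0, 4 and 10 of Ly6g in the first 3 ranges. Ceacam10 stood at 57.5 CPM at 0.1 to 1% and 57.8 CPM at 1 to 5%. Without the cell with most of its UMIs in each, these were 50.9 and 50.7 CPM. Lcn2 stood at 198, 769, 893 and 2227 CPM, with a UMI in 67, 58 and 57 cells of the first 3 ranges, and S100a6 at 5659, 7938, 9075 and 20786 CPM. Retnlg stood at 6.00, 9.58, 28.9 and 1093 CPM, which in the first 3 ranges are 6, 4 and 11 UMIs with overlapping intervals. Few cells set the stefin levels. BC100530 stood at 19.0, 249, 512 and 2736 CPM and had a UMI in 9, 6 and 13 cells of the first 3 ranges, and without the cell with most of its UMIs in each it stood at 14.04, 58.9 and 184 CPM. Stfa2 stood at 2.00, 83.8, 210.1 and 1098 CPM and had a UMI in 2, 5 and 9 cells, and without the cell with most it stood at 1.01, 39.3 and 82.0 CPM. Ifitm1 was highest within the S100-low cells in the middle range, at 448, 1576, 1221 and 2990.0 CPM. It had a UMI in 35, 23 and 33 cells of the first 3 ranges. Without the cell with most of its UMIs in each it stood at 227, 1153 and 1027 CPM, so few cells set these levels too.

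Of the 24 higher genes, 15 had a lower level in each range than in the one before. Clec4n stood at 1994, 1363, 1045 and 377 CPM, Clec7a at 941, 472, 436 and 215 CPM, Ccl9 at 1505, 881, 552 and 191 CPM and Lpl at 1089, 678, 305 and 113 CPM. Siglecf stood at 155, 93.4, 60.4 and 18.1 CPM, Id2 at 205, 101, 94.6 and 18.1 CPM and Scimp at 218, 83.8, 63.0 and 21.2 CPM. The intervals of the middle ranges overlapped for Clec7a, Siglecf, Id2 and Scimp. The other 9, C3ar1, Ccl4, Cd302, Fn1, Ltc4s, Mmp12, P2ry13, Top2a and Wfdc17, had no such order. C3ar1 stood at 162, 204, 86.7 and 60.6 CPM and Ccl4 at 687, 349.6, 509.6 and 122 CPM. Lst1, a marker the rule did not use, stood at 1552, 1329, 1022 and 624 CPM, and Csf3r, which the rule used, at 615, 584, 696 and 599 CPM.

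**Figure D5:**
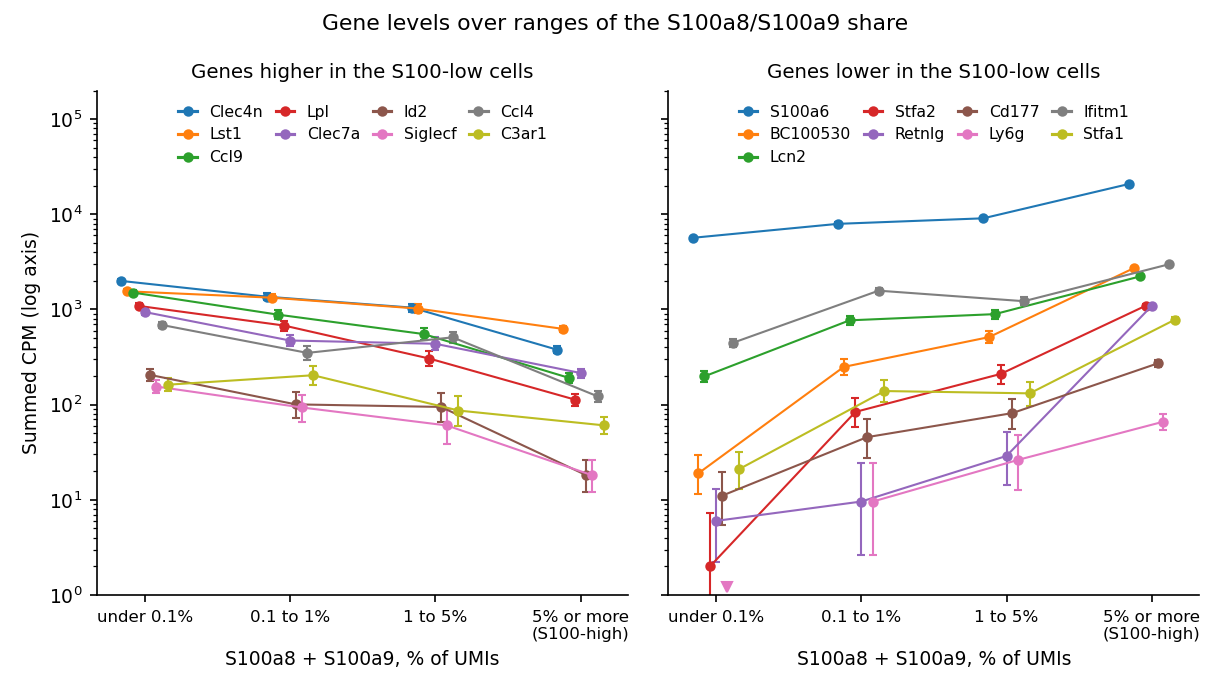
Summed CPM (logarithmic) of 18 genes in 4 ranges of the S100a8 and S100a9 share, the first 3 within the 448 S100-low cells and the last the 309 S100-high counterparts. Bars are exact Poisson 95% intervals, and the triangle at the bottom marks 0 UMIs (Ly6g under 0.1%). The genes on the left are lower, and those on the right higher, in the S100-high counterparts than under 0.1%, and C3ar1, Ccl4, Ifitm1 and Stfa1 are not in one order over the ranges.

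Against the Ctss-high cells, which share the low S100a8 and S100a9 share, the S100-low cells had higher levels of late neutrophil genes and lower levels of macrophage, MHC class II and cell cycle genes. Of 8309 measured genes, 448 (5.39%) were higher and 521 (6.27%) lower, with a median log2 ratio of 0.05. Over the 448 cells 1080 (12.7%) and 1032 (12.1%) of 8531 were, with a median of 0.15. TMM factors moved every ratio by -0.12 and gave 322 higher and 569 lower genes over all cells. Siglecf stood at 83.8 and 121 against 6.11 CPM and Asprv1, a retroviral-like protease gene, at 143 and 233 against 11.7 CPM. Il1r2, the decoy receptor of interleukin 1, stood at 583 and 925 against 70.3 CPM, with a log2 ratio of 3.05 (2.94 to 3.17). Pglyrp1, a peptidoglycan recognition protein gene of granules, stood at 341 and 528 against 39.7 CPM. The lymphotoxin gene Ltb stood at 258 and 385 against 33.9 CPM and Mmp9 at 483 and 745 against 82.1 CPM.

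On the lower side, the complement genes of macrophages were low, with C1qa at 6.39 and 1.11 against 54.4 CPM, C1qb at 51.5 and 4.45 against 227 CPM and C1qc at 20.5 and 1.11 against 105 CPM. The log2 ratio of C1qb was -2.14 (-2.38 to -1.90) over all cells and -5.67 over the 448. The aminopeptidase gene Anpep stood at 26.9 and 0.556 against 82.0 CPM, H2-Aa at 67.3 and 2.22 against 279 CPM and Ctsk, which encodes cathepsin K, at 14.1 and 1.11 against 51.0 CPM. Gpnmb stood at 331 and 36.7 against 1147 CPM and Fabp5 at 324 and 40.0 against 1412 CPM. Birc5, the survivin gene of dividing cells, stood at 9.42 and 3.89 against 76.8 CPM. Each of these genes differed more over the 448.

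The late neutrophil list, lower against the S100-high counterparts, was on the other side here. Of the 18 measured tertiary granule and late neutrophil genes, 8 were higher and 0 lower (list median 0.91), and over the 448 cells 11 and 0 of 18 (median 1.37). Of the 29 measured paired and inhibitory immune receptors, 8 were higher and 0 lower (list median 0.41), and over the 448 cells 13 and 1 of 30 (median 0.83). Besides Slfn1, which the rule used, all 3 measured Schlafen genes were higher, with Slfn4 at 35.0 and 55.6 against 4.46 CPM and Slfn2 at 817 and 1187 against 315 CPM. Of the 8 measured MHC class II genes, 0 were higher and 5 lower (list median -1.55), and over the 448 cells 0 and 7 of 8 (median -3.63). Of the 42 measured G2/M genes, 1 was higher and 25 lower (list median -1.51), and over the 448 cells 2 and 27 of 42 (median -2.25). Of the 15 measured lipid handling genes, 0 were higher and 7 lower (list median -0.79), and over the 448 cells 1 and 8 of 15 (median -1.08). Of the 24 measured lysosome and proteolysis genes, 0 were higher and 4 lower (list median -0.61), and over the 448 cells 0 and 8 of 24 (median -0.82). The median of the lysosomal list was thus above 0 against the S100-high counterparts and below 0 against the Ctss-high cells.

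Against the granule-rich cells, 2658 of 8021 measured genes (33.1%) were higher and 337 (4.2%) lower, with a median log2 ratio of 0.73, and over the 448 cells 3077 (38.4%) and 432 (5.39%) of 8013. TMM factors moved every ratio by -0.68 and gave 678 higher and 830 lower genes, and leaving out the UMIs of S100a8 and S100a9 moved it by -0.28 and gave 1582 and 495. Elane, the neutrophil elastase of primary granules, stood at 32.3 and 0.556 against 742 CPM, and Ms4a3, a gene of granulocyte progenitors, at 8.75 and 1.11 against 249 CPM. Serpinb1a, an inhibitor of granule proteases, stood at 15.1 and 11.1 against 961 CPM and Retnlg at 14.1 and 11.7 against 1379 CPM. On the other side, Clec4n stood at 1368 and 1647 against 78.5 CPM, Clec7a at 519 and 725 against 26.9 CPM, Ccl4 at 560.1 and 571 against 19.5 CPM and Slc11a1, a phagosomal metal transporter gene, at 53.5 and 68.9 against 3.90 CPM. Of the 19 measured tertiary granule and late neutrophil genes, 2 were higher and 8 lower (list median -0.02), and over the 448 cells 5 and 8 of 19 (median 0.26). Retnlg and the stefin genes were among the lower ones in both, so their high level is shared by the granule-rich cells and the S100-high counterparts.

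The classes differ in depth, so cells were also thinned to 2000 UMIs, leaving out 43 S100-low cells, 34 S100-high counterparts and 7 Ctss-high cells that were shallower. At this depth the S100-low cells had a median of 1115.5 genes per cell (1123 over the 448), against 881.5 in the S100-high counterparts, 736.5 in the granule-rich cells and 1053 in the Ctss-high cells. Without thinning the medians were 1712, 1634, 2272 and 5006 genes. S100a8 and S100a9, genes of the rule, took a median of 17.3% of UMIs in the S100-high counterparts and 21.3% in the granule-rich cells. In the S100-low cells they took 0.0653%. A fixed depth thus leaves fewer UMIs for other genes in those 2 classes. The part of this in the gene numbers and in the shares below was not tested. At least 1 UMI of Lst1 was found in 86.6% of S100-low cells (88.6% of the 448), 56.9% of the S100-high counterparts and 28.4% of the Ctss-high cells. For Clec4n this was 83.3% of S100-low cells (84.0% of the 448), 31.9% of the S100-high counterparts and 83.2% of the Ctss-high cells, and for Clec7a 65.5% of S100-low cells (65.2% of the 448), 32.6% of the S100-high counterparts and 38.0% of the Ctss-high cells. Siglecf was found in 21.8% of S100-low cells (23.7% of the 448), 3.47% of the S100-high counterparts and 0.895% of the Ctss-high cells. Tarm1 was found in 73.8% of S100-low cells (75.6% of the 448), 72.6% of the S100-high counterparts and 21.9% of the Ctss-high cells. Free RNA in droplets gives UMIs of an abundant gene in cells that do not express it. S100a8 was found in 53.5% of S100-low cells (53.1% of the 448), 100% of the S100-high counterparts and 49.7% of the Ctss-high cells, and such a share is not read as expression. Retnlg was found in 2.08% of S100-low cells (1.48% of the 448), 22.6% of the S100-high counterparts and 2.24% of the Ctss-high cells, and its share in the S100-low cells is not read as expression either. Before thinning, Lst1 was found in 93.1% of S100-low cells, S100a8 in 63.8%, Clec4n in 88.2%, Clec7a in 81.3%, Siglecf in 33.7%, Tarm1 in 85.1% and Retnlg in 4.21%.

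Among themselves the S100-low cells varied most in Lyz2 and Fth1. Variation was measured as the variance of a gene's UMIs given each cell's depth, which is near 1 for counting noise alone. For a gene that varies beyond that noise the measure grows with its level. It therefore does not rank genes by relative variation. Its median over the 3109 genes at 50 CPM or more was 1.23 (1.10 over the 448). The chemokine gene Ccl4 had 60.2 (58.8), and 76.9% of its UMIs (79.0%) were in the 24 cells (23) with most of it. For BC100530, 95.9% (98.4%) were. The summed CPM of both genes is therefore set by few cells, and their intervals are too narrow. Lyz2 had 86.9 (75.1), Fth1 85.0 (82.7), S100a9, a gene of the rule, 65.6 (52.3), the nuclear noncoding RNA gene Malat1 58.6 (27.3) and Ifitm1 56.8 (51.4). Of the UMIs of Lyz2 and Fth1, 44.7% and 48.2% were in the 24 cells with most of each. The deepest 5% of the cells held 39.3% of the UMIs of all genes. Il1b, which encodes interleukin 1 beta, had 28.8 (20.6), with 65.7% of its UMIs in the top cells. It had a UMI in 26.5% of the cells (25.2%), and Ccl4 in 33.9% (30.4%).

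In the coculture library 156 of 3005 kept barcodes met the same rule, with a median of 11956.5 UMIs, and 85 of them had at least 0.03% Slfn1 and Csf3r. Sort gate, coculture, medium and library differ together here and cannot be told apart. These barcodes carried markers of other lineages at higher levels than the S100-low cells. Eosinophil markers summed to 1239.5 CPM against 94.2, basophil or mast cell markers to 1643 against 49.8, granulocyte-monocyte progenitor markers to 2312 against 101, and megakaryocyte or platelet markers to 1873 against 21.9. Over the 85 barcodes and the 448 cells the same sums were 653 against 131, 614 against 55.6, 283 against 12.2 and 1771 against 11.1 CPM. Lst1, Tarm1, Hcar2 and Lilra6 summed to 388 CPM in the coculture barcodes (554 in the 85) and 2287 in the S100-low cells (3390.0 in the 448).

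Of 8352 measured genes, 955 (11.4%) were higher in the S100-low cells than in these coculture barcodes and 685 (8.2%) lower, with a median log2 ratio of 0.23. Over the 448 cells and the 85 barcodes, 1526 (18.4%) and 737 (8.89%) of 8293 were. TMM factors moved every ratio by -0.18 and gave 602 higher and 802 lower genes over all cells. Prg2, Epx and the basophil protease genes Prss34 and Mcpt8 had 0 UMIs in the S100-low cells and stood at 864, 232, 943 and 447 CPM in the coculture barcodes. Against a floor of 3 UMIs over the class, Prss34 was at least 935-fold and Prg2 at least 856-fold lower. Arg1 stood at 10.1 and 12.8 against 3165 CPM, Pf4, a platelet chemokine gene, at 20.2 and 9.45 against 1576 CPM and Retnlg at 14.1 and 11.7 against 1477 CPM. Ifitm1 stood at 765 and 873 against 13457 CPM. Higher in the S100-low cells were Asprv1 (143 and 233 against 1.19 CPM), Clec7a (519 and 725 against 23.4 CPM), Lpl (1072 and 828 against 33.4 CPM), S100a4 (735 and 804 against 47.7 CPM) and Lyz2 (19331 and 18289.9 against 2849 CPM). The part of the other lineages' cells in these differences was not tested.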

How the data were processed

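Raw UMI counts per gene and barcode, not normalized, were deposited by the authors for 2 single-cell libraries, 1 per group. Per the file headers they come from Cell Ranger 3.1.0, and per the submitters' processing notes from the mouse build mm10. Neither the release of the gene annotation nor the way empty droplets were told from cells is stated in these sources. Of the 47729 gene identifiers, 47310 were in GENCODE M21, whose GRCm38 positions (the same build) were used. Where several identifiers shared a symbol (126 symbols), only the first was given the symbol itself.

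The rule was applied with python 3.11.15, numpy 2.4.6, scipy 1.17.1 and pandas 2.3.3, and figures were drawn with matplotlib 3.10.9. Kept barcodes numbered 1817 without coculture and 3005 with it. No doublet caller was run, so droplets with more than 1 cell remain. UMIs were summed per class and given as CPM. Log2 ratios are S100-low cells over the other class, with an exact conditional binomial 95% interval, and a 0 took a floor of 3 UMIs over the class. These intervals take each UMI as independent, which makes them too narrow for genes concentrated in a few cells. No test was run, as each group is 1 library. TMM factors came from edgeR 4.0.16 in R 4.3.3. The ratio, interval and variance steps were tested on simulated counts with counting noise alone. That checks the computation and not the intervals of genes that vary more between cells.

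The cells, the 32 gene lists and 13 marker sets (755 genes, 753 in the files) and the alternatives were chosen with earlier results of these data known. The genes named are the marker sets' genes, the genes of the rule, the 12 with the highest and the 12 with the lowest ratio in each comparison at 50 CPM or more (repeated for the 448 cells, after the data were seen), in each list the 2 with the highest CPM and the 4 with the largest ratio against the S100-high counterparts (all genes of lists of 12 or fewer), the 15 with the highest CPM, and the 12 with the highest variance. Ribosomal, mitochondrial and unnamed models were left out of the ranked choices. Some genes that the rule names are not reported here. Alternatives changed each threshold, the scaling, the filter, the fold, the depth and, after the data were seen, left out the cell with most UMIs of a gene.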

Additional observations from a re-analysis of the deposited data

Results flagged for a closer look

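Of the 363 barcodes of the library without coculture that the gene and mitochondrial filters left out, 70 met the other thresholds of the rule for the S100-low cells. This is 19.3% of the barcodes left out, and they stand here because the values of the report do not use them. Of these 70 barcodes 63 were over 10% mitochondrial UMIs, and their medians were 1042 UMIs and 15.2% mitochondrial UMIs. Part of them entered 2 of the alternatives, as a mitochondrial limit of 20% gave 513 S100-low cells and a minimum of 200 genes 482 in place of 475.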

How the results depend on the processing

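The number of S100-low cells ranged from 361 to 596 under the alternatives tried for its thresholds, within 1.5 times 475, but the counts of higher and lower genes moved more. Only values outside that range follow, and each pair is the number of higher and lower genes.

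At 1.5-fold they were 3363 and 313 against the S100-high counterparts, 1268 and 1108 against the Ctss-high cells, 4749 and 506 against the granule-rich cells, and 2277 and 1174 against the coculture barcodes. At 3-fold they were 549 and 46, 153 and 189, 923 and 210, and 281 and 424 in the same order. With 50 CPM as the minimum they were 406 and 52, 178 and 134, 886 and 136, and 385 and 253. With no CPM filter they were 2674 and 240 against the S100-high counterparts, 1117 and 1397 against the Ctss-high cells, and 1490 and 1184 against the coculture barcodes, and 559 genes were lower against the granule-rich cells. With TMM factors they were 549 and 355 against the S100-high counterparts and 678 and 830 against the granule-rich cells, and 602 genes were higher against the coculture barcodes. Without the UMIs of S100a8 and S100a9 they were 899 and 270 against the S100-high counterparts, and 1582 genes were higher against the granule-rich cells.

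The comparison with the Ctss-high cells depends most on which cells are counted. The pair was 918 and 914 with Ctss below 0.075%, 154 and 39 below 0.3%, 1060 and 1015 with Slfn1 and Csf3r at 0.03% in place of a count, and 1080 and 1032 with both minimums. It was 1047 and 1055 with the deepest 5% of each class left out and 1189 and 1042 from means of per-cell CPM. With Ctss below 0.3%, 240 genes were lower than in the S100-high counterparts. Genes higher than in the coculture barcodes numbered 1449 with 0.03% in place of a count, 1526 with both minimums and 1469 from means of per-cell CPM. The cause of these shifts was not tested.

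Median genes per cell fell with depth by construction, to 656, 524 and 618 at 1000 UMIs for S100-low, S100-high and Ctss-high cells, against 1712, 1634 and 5006 without thinning.

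Of the 87 log2 ratios of named genes, 3 that were past 2-fold changed sign, all against the S100-high counterparts. Fabp5 became -1.47 with 0.03% in place of a count, -1.46 with both minimums, -1.03 with Ctss below 0.075%, -1.74 without the 5% deepest cells and -0.90 from per-cell means. H2-Aa became -2.42 with 0.03% in place of a count and -3.21 with both minimums, and H2-Ab1 -1.23, -1.31 and, without the 5% deepest cells, -0.026. The median of the MHC class II list against the granule-rich cells became -0.15 with both minimums. Leaving out for each gene the S100-low cell with most of its UMIs, an alternative added after seeing the data, took only the ratio of Fn1 over the 448 from 2-fold or more to under it (log2 0.94), and with both minimums Fabp5, H2-Aa and H2-Ab1 stood at -1.76, -4.20 and -1.53. Over 20 alternatives, 1139 of 1740 ratios of named genes stayed within their counting interval, 588 moved outside it, and 13 values of these 3 genes changed sign. The smaller ratios of Tarm1, Lilra6, Hcar2, Il1b and Lst1 against the S100-high counterparts also changed sign under some alternatives.

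No paired analysis was possible because each group is 1 library. Depth limits what can be seen in single cells, since 43 of 475 cells were under 2000 UMIs.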
